A study of Mus musculus with 12 samples.

Results

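The genes described here are 10 mouse genes of the nuclear lamina and of nuclear shape, Lbr, Lmna, Lmnb1, Lmnb2, Tmpo, Emd, Sun1, Sun2, Banf1 and Padi4. They were chosen by name and found in the count tables through their Entrez gene identifiers, and they are 10 of the 27179 genes in those tables. RNA sequencing measured the leukemia AML246, a cytogenetically normal acute myeloid leukemia of C57BL/6 mice that lacks p53 (p53-/-) and carries a short hairpin RNA (shPU.1) that silences Spi1, the gene for the myeloid transcription factor PU.1. All 4 groups carry the deletion and the hairpin, and all cells were sorted as GFP+ from the bone marrow of leukemic recipient mice. Doxycycline (Dox) given to the mice shuts off the hairpin, which is linked to GFP, so that the cells' own PU.1 returns.

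The groups were untreated cells sorted as GFPhigh and cells after 2 days (GFPhigh-mid), 4 days (GFPmid) and 6 days (GFPlow) of Dox, with 3 libraries each. The day of Dox and the GFP gate change together and cannot be told apart. No group received Dox without the hairpin, so an effect of Dox itself and an effect of hairpin shut-off cannot be told apart either. The study describes 3 mice per group, while the library titles call the replicates technical. The p-values here hence weigh differences against a spread between libraries that may be technical, and every library comes from 1 leukemia.

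The nuclear lamina is a meshwork of lamins under the inner nuclear membrane that sets how stiff the nucleus is and anchors silent chromatin. Lamin A and lamin C come from Lmna, and lamins B1 and B2 come from Lmnb1 and Lmnb2. The lamin B receptor LBR ties the lamina and heterochromatin to the membrane and is also a sterol reductase. Loss of LBR leaves neutrophil nuclei without lobes in humans (Pelger-Huet anomaly) and in ichthyosis mice, and neutrophils are known for a lamina rich in LBR and poor in lamin A. PADI4 citrullinates histones in neutrophils and loosens chromatin when extracellular traps form.

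Library totals lay between 4918920 and 7356166 counts. Spi1 averaged 62.5 ± 7.29, 110 ± 12.01, 260 ± 14.1 and 458 ± 33.9 CPM (counts scaled to library size with TMM factors) in untreated cells and at day 2, day 4 and day 6 (SD, n = 3 each), so the targeted gene followed the labels. Among the day 6 libraries, replicate 2 stood apart: its counts differed from replicates 1 and 3 by a chi-square per gene of 41.0 and 35.8, against 4.53 between replicates 1 and 3 and 2.53 to 9.89 within the other groups. The summed level of 10 neutrophil markers was 65060 CPM in day 6 replicate 2, against 142100 and 125000 CPM in day 6 replicates 1 and 3. The same library had the highest sum of 9 monocyte and macrophage markers at day 6, 4097 CPM, against 1320 and 1490 CPM, and of 6 T cell markers, 26.4 CPM, against 2.56 and 1.56 CPM. B cell, NK cell and erythroid marker sums stayed at or below 4.76 CPM in every library. In bulk RNA, fewer cells of a type and less RNA per cell cannot be told apart.

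At day 6 the lamina genes had taken 3 courses. Padi4, Sun2, Tmpo, Lbr, Sun1 and Lmnb1 were higher than in untreated cells, Banf1 and Lmnb2 were lower, and Lmna and Emd did not pass the test. All 10 genes had enough counts to be tested. With an adjusted p under 0.05 (edgeR quasi-likelihood test, Benjamini-Hochberg over 12057 genes) as the call, 6 of 10 were called higher and 2 of 10 lower, where 35.0% of all tested genes were called higher and 32.9% lower. Their median log2 fold change was 0.42, against 0.00 over all tested genes.

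Calls among the 10 genes were made at day 4 and day 6. At day 2 none of the 10 genes was called, where 1.05% of all tested genes were called higher and 0.406% lower, and the smallest edgeR adjusted p among the 10 was 0.262, for Sun1. A count of 0 in 10 lies close to that background, and the 95% intervals of the day 2 log2 fold changes of Tmpo (0.04 to 0.52) and Sun1 (0.05 to 0.55) lay above 0. At day 4, 5 of 10 were called higher than in untreated cells (Lbr, Lmnb1, Tmpo, Sun1 and Padi4) and Banf1 lower, where 22.1% of all tested genes were called higher and 20.2% lower. Their median log2 fold change at day 4 was 0.41, against -0.02 over all tested genes. Any change over the 4 groups was called by edgeR for 8 of the 10 genes, where 68.7% of all tested genes were called, and Lmna (edgeR adjusted p = 0.113) and Emd (edgeR adjusted p = 0.589) were not among them.

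The later steps shared groups with those comparisons, and their values are given beside them. At day 4 against day 2, 4 genes were called higher (Lbr, Lmnb1, Tmpo and Sun1) and Banf1 lower, where 15.0% of all tested genes were called higher and 10.2% lower. At day 6 against day 4, 3 genes were called higher (Padi4, Sun2 and Lbr) and 3 lower (Lmna, Sun1 and Banf1), where 23.6% of all tested genes were called higher and 22.6% lower. The counts for that step were 3 higher and 5 lower with upper-quartile factors and 2 higher and 7 lower with library totals. Upper-quartile factors called 2087 of all 12057 tested genes higher and 3949 lower at that step, and library totals 1331 and 6263.

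**Figure D1:**
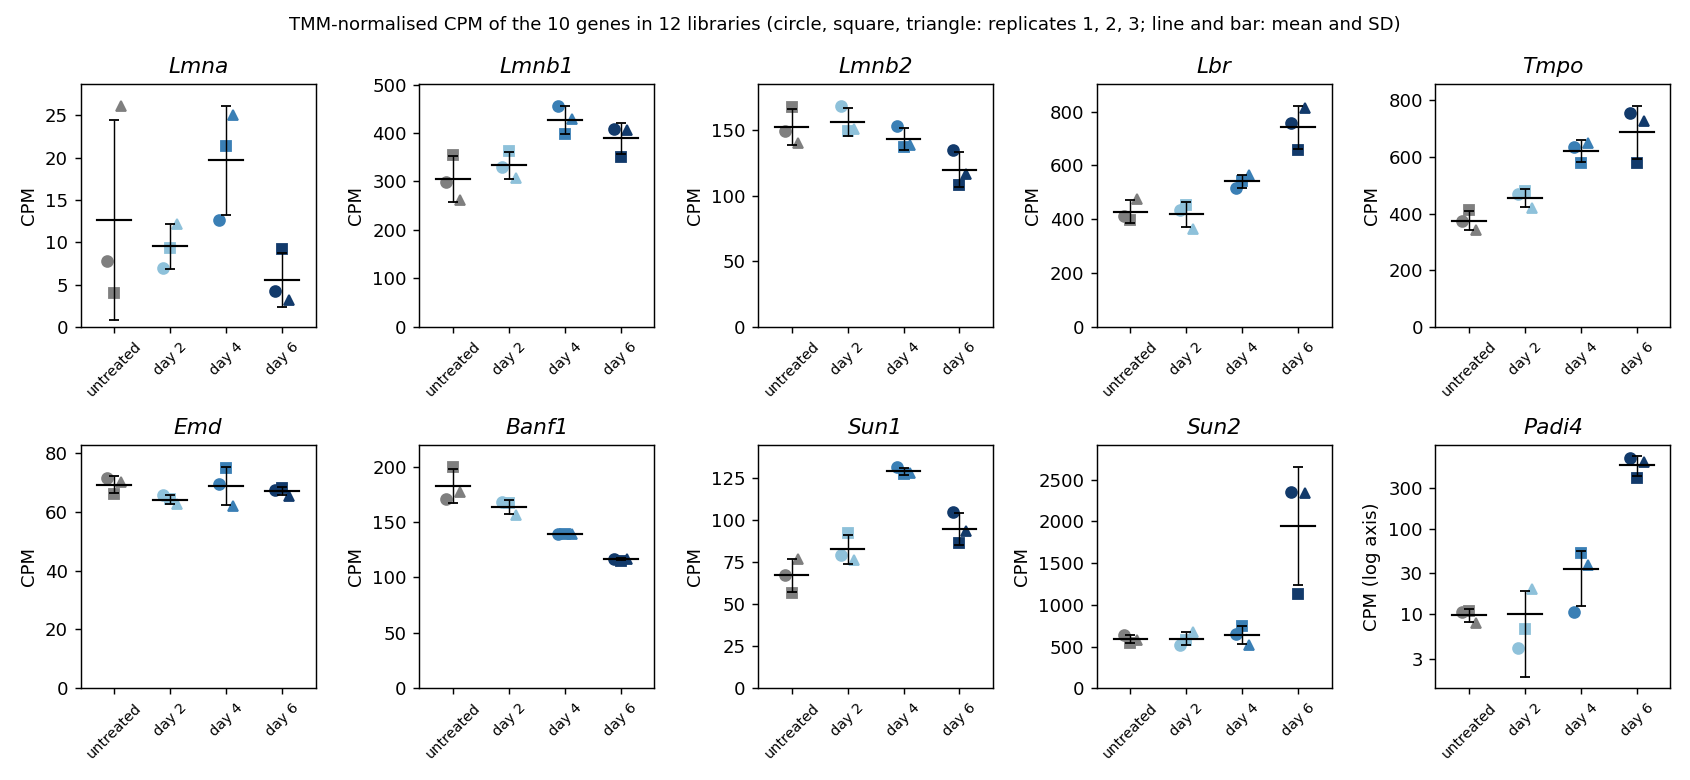
Level of each of the 10 genes in CPM (y axis, a log axis for Padi4) in untreated cells and at day 2, day 4 and day 6 of Dox (x axis); each point is a library, each line the mean and each bar the SD of 3 libraries. Padi4 and Sun2 sit apart at day 6, Sun1 and Lmnb1 have their highest group mean at day 4, and Banf1 has a lower mean in each later group.

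**Figure D2:**
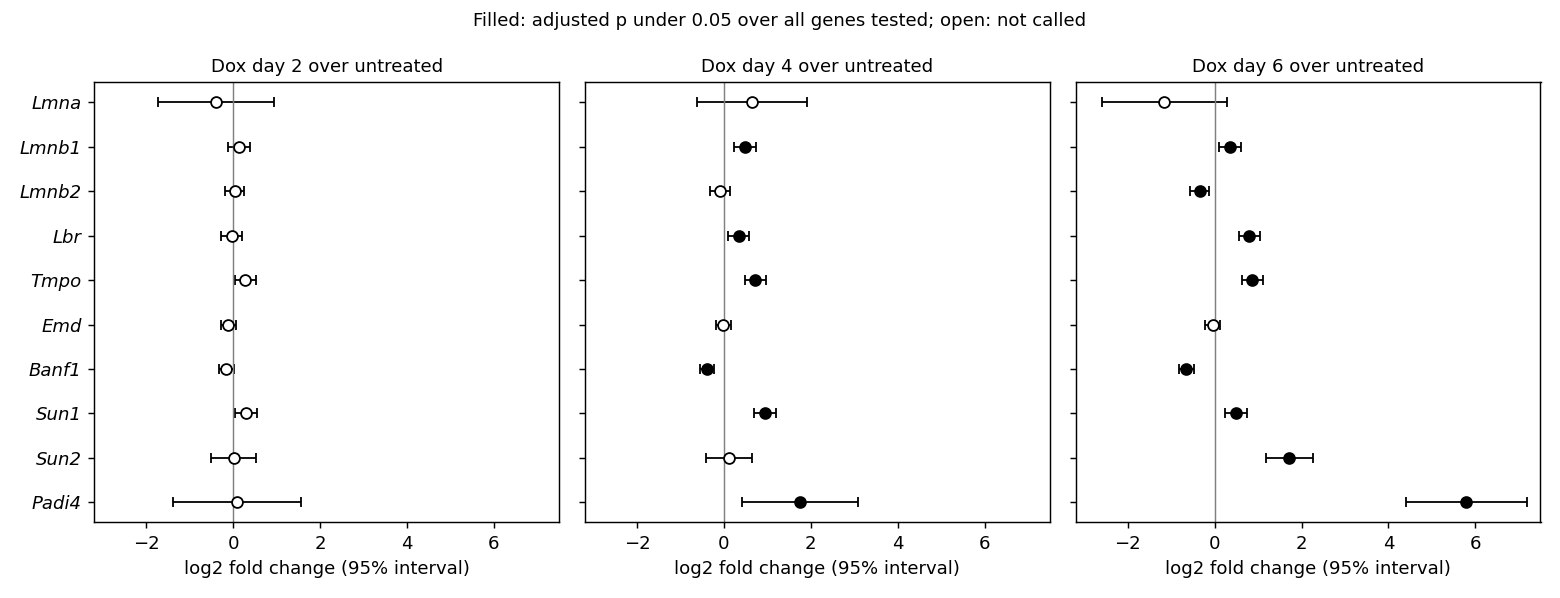
Log2 fold change of each gene (rows) over untreated cells at day 2, day 4 and day 6 of Dox, with its 95% interval; filled points have an edgeR adjusted p under 0.05 over 12057 genes. No point is filled at day 2, 6 are filled at day 4 and 8 at day 6.

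Promoter windows are shown for 4 genes, because Padi4 and Sun2 had the highest fold changes and because Tmpo, which rose, and Banf1, which fell, are the genes whose windows hold the core of the PU.1 motif. The windows run from 250 bases before to 50 after an annotated start (RefSeq, GRCm38.p6) and were found for 9 of the 10 genes, 14 windows in all; Lmnb1 was the other. The Padi4 window is chr4:140774154-140774453 and the Sun2 window chr15:79742487-79742786. The Tmpo window printed is chr10:91171570-91171869 and the Banf1 window chr19:5366827-5367126. All 4 genes lie on the minus strand, so the letters below are the reverse complement of the plus strand. Both Tmpo windows lie inside the annotated span of Tmpo, chr10:91147571-91181752, and not at its upstream end. Both Lmna windows likewise lie inside the span of Lmna. Whether they are main promoters was not tested. Capitals mark, on either strand, the PU.1 motif core with the letters GAGGAA, the NF-Y motif with the letters CCAAT and the TATA box with the letters TATAAA.
Padi4: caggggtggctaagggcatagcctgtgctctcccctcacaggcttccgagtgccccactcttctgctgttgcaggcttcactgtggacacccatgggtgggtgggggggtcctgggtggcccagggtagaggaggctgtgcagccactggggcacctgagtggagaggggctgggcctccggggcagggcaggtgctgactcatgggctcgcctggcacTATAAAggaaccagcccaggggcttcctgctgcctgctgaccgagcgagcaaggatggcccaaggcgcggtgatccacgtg
Sun2: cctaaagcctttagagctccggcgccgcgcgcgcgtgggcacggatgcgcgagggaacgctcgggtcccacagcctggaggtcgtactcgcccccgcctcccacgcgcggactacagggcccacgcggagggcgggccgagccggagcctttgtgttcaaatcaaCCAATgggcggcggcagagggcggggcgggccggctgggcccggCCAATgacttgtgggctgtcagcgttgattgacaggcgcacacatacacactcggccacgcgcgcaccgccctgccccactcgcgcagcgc
Tmpo: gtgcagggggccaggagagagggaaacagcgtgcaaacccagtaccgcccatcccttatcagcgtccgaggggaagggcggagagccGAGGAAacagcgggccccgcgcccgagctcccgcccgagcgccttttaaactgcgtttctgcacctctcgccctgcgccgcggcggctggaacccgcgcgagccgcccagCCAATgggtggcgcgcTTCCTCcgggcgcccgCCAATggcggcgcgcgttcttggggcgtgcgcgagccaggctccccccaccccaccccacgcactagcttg
Banf1: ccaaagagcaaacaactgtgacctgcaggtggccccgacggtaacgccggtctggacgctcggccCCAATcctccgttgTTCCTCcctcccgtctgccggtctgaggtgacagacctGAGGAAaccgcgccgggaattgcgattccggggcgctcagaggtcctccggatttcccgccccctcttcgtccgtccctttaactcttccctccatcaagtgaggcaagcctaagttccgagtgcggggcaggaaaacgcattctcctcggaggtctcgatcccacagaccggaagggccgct

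Besides the PU.1, NF-Y and TATA box letters, 3 motifs were searched on both strands, C/EBP as TTGCNNAA, E2F as TTTNNCGC and Sp1 as GGGCGG, where N is any base. The TATA box was added after the windows had been read, and 3 pairs of neighbouring matches overlapped. The PU.1 core was in 3 of the 14 windows, both windows of Tmpo and the first of Banf1, and in 28.3% of all 32851 windows. The NF-Y motif was in 8 of 14 windows and in 37.4% of all windows, and at least 2 copies were in 4 of 14 (Lbr, Tmpo, Sun1 and Sun2) and in 11.7% of all windows. The TATA box letters were in 2 of 14, the Padi4 window at its bases 220 to 225 and the second Sun1 window, and in 13.6% of all. The C/EBP motif was in none of the 14 and in 10.8% of all windows. The E2F motif was in 2 of 14 and in 5.17% of all, and the Sp1 motif in 9 of 14 and in 35.7% of all. Of these motifs the Padi4 window held only the TATA box letters. A match is a description of letters, and a window without one says only that these letters are not in it.

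Among the lamins, RNA of the B type dominated in every library, Lmnb1 was higher from day 4, Lmnb2 was lower at day 6, and Lmna had the least RNA of the 3 in every library. Per kilobase of the authors' gene length, Lmnb1 averaged 107 ± 16.6, 117 ± 9.74, 150 ± 10.1 and 137 ± 11.4 CPM per kb in untreated cells and at day 2, day 4 and day 6 (SD, n = 3 each). Lmnb2 averaged 45.3 ± 4.11, 46.4 ± 3.17, 42.5 ± 2.55 and 35.6 ± 4.06 CPM per kb in the same groups. Lmna averaged 3.81 ± 3.56, 2.86 ± 0.783, 5.93 ± 1.93 and 1.66 ± 0.964 CPM per kb. By that level, Lmnb1 ranked 607 and Lmna 9193 among the 12057 tested genes in untreated cells.

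Lmnb1, which encodes lamin B1, had 408, 351 and 407 CPM in day 6 replicates 1, 2 and 3, against 298, 355 and 261 CPM in untreated replicates 1, 2 and 3. At day 4 it had 456, 399 and 428 CPM, and at day 2 it had 330, 363 and 308 CPM. All day 4 libraries were above all untreated and day 2 libraries, while day 6 overlapped untreated through 1 library of each. The log2 fold change over untreated cells was 0.49 at day 4 (edgeR adjusted p = 0.00516) and 0.35 at day 6 (edgeR adjusted p = 0.0175). The day 6 call was lost in 6 of 21 alternatives, among them the omission of untreated replicate 1 or 3 and of day 6 replicate 1 or 3, and the value was -0.17 with library totals in place of TMM factors. At day 6 against day 4 the log2 fold change was -0.14 (edgeR adjusted p = 0.355), and it was called lower with upper-quartile factors (-0.30, edgeR adjusted p = 0.0400) and library totals (-0.54, edgeR adjusted p = 9.10e-04).

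Lmnb2, which encodes lamin B2, had 135, 108 and 117 CPM in day 6 replicates 1, 2 and 3, against 150, 168 and 140 CPM in untreated replicates 1, 2 and 3. The groups did not overlap, and the log2 fold change was -0.35 ± 0.10 (SE; edgeR adjusted p = 0.00932). At day 4 its libraries had 153, 138 and 139 CPM, of which 1 lay inside the untreated range and 2 just below it, with a log2 fold change over untreated of -0.09 (edgeR adjusted p = 0.499). Day 2 libraries had 169, 149 and 151 CPM. At day 6 against day 4 the value was -0.26 (edgeR adjusted p = 0.0583), which 4 of 21 alternatives called lower.

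Lmna, which encodes lamins A and C, was counted with 16 to 182 reads per library. It had 4.27, 9.16 and 3.12 CPM in day 6 replicates 1, 2 and 3, against 7.80, 4.04 and 26.2 CPM in untreated replicates 1, 2 and 3. Untreated replicate 3 stood far above the other untreated libraries, and the groups overlapped. At day 2 Lmna had 6.99, 9.34 and 12.2 CPM, and at day 4 it had 12.6, 21.4 and 25.1 CPM.

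The log2 fold change of Lmna over untreated cells was 0.64 at day 4 (95% interval -0.63 to 1.92) and -1.16 at day 6 (95% interval -2.60 to 0.29), and neither passed the edgeR test. Without untreated replicate 3 the day 4 value was 1.74 and was called (edgeR adjusted p = 0.0126), while the day 6 value was -0.06 (edgeR adjusted p = 0.915). The day 6 value was called lower in 2 of 21 alternatives, without untreated replicate 2 (-1.58) and with library totals (-1.65). At day 6 against day 4, all 3 libraries were below all 3 of day 4, and the fall was called, with a log2 fold change of -1.80 ± 0.64 (SE; edgeR adjusted p = 0.0400). That call was lost in 6 of 21 alternatives.

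The share of each lamin within a library does not depend on the scaling between libraries. Lmnb2 made up 21.7, 20.2 and 19.4% of lamin RNA per kb in day 6 replicates 1, 2 and 3, and 28.3 to 29.4% in the untreated libraries. The ratio of Lmnb1 to Lmnb2 was 3.59 to 4.13 at day 6 and 3.44 to 3.65 at day 4, against 2.21 to 2.51 in untreated cells. Day 4 and day 6 libraries were all above every untreated and day 2 library in this ratio, day 2 reaching 2.88. Lmna made up 0.525 to 1.74% of lamin RNA at day 6, against 0.690 to 5.56% in untreated cells, and these ranges overlapped.

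**Figure D3:**
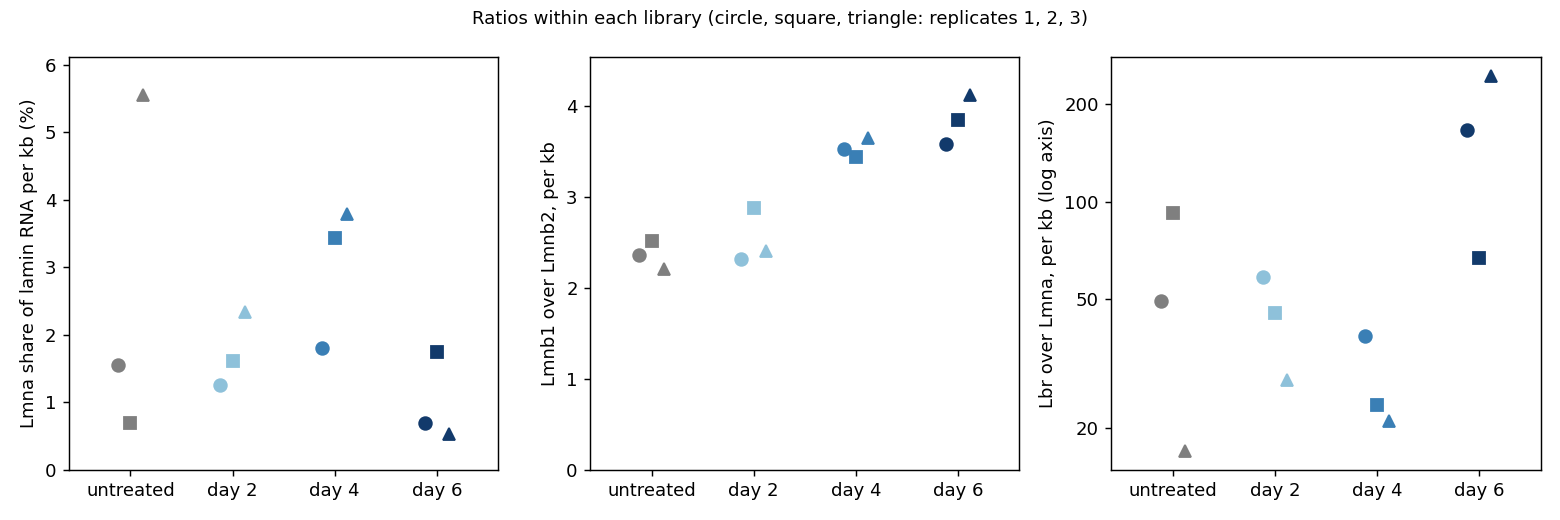
Lmna share of lamin RNA (left), the ratio of Lmnb1 to Lmnb2 (middle) and the ratio of Lbr to Lmna (right, log axis), each from CPM per kb within a library, in untreated cells and at day 2, day 4 and day 6; each point is a library. The Lmnb1 to Lmnb2 ratio is at least 3.44 in all day 4 and day 6 libraries and at most 2.88 in the others, while untreated replicate 3 is the highest point for the Lmna share.

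Lbr RNA rose at day 4 and further at day 6. It had 757, 656 and 814 CPM in day 6 replicates 1, 2 and 3, against 412, 396 and 475.5 CPM in untreated replicates 1, 2 and 3. All day 6 libraries were above all others, the lowest being replicate 2. At day 4 Lbr had 517, 541 and 564 CPM, above all untreated and day 2 libraries, and at day 2 it had 435, 453 and 365 CPM.

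Over untreated cells, the log2 fold change of Lbr was 0.34 ± 0.11 at day 4 (SE; edgeR adjusted p = 0.0277) and 0.79 ± 0.11 at day 6 (SE; edgeR adjusted p = 4.33e-05). The step from day 4 to day 6 was 0.46 (edgeR adjusted p = 0.00528). The day 6 call over untreated cells held in all 21 alternatives, and without day 6 replicate 2 the value was 0.88. The day 4 call was lost in 6, which were the omission of untreated replicate 1 or 2 or day 4 replicate 2 or 3, upper-quartile factors and library totals, and the step from day 4 to day 6 was lost with library totals (0.05).

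Per kb, Lbr RNA was 1.49 to 1.60 times Lmnb1 RNA at day 6, against 0.893 to 1.46 times in untreated cells, and these ranges did not overlap. The ratio of Lbr to Lmna was 67.1 to 244 in day 6 libraries, 21.0 to 38.4 in day 4 libraries and 28.1 to 58.3 in day 2 libraries, against 17.0 to 92.0 in untreated cells. All day 6 libraries were above all day 2 and day 4 libraries in that ratio, and day 6 overlapped untreated.

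Of the LEM-domain proteins, which bind the chromatin protein BAF, Tmpo rose and Emd did not pass the test, while Banf1, which encodes BAF, fell. Tmpo encodes the lamina-associated polypeptides LAP2. It had 754, 579 and 726 CPM in day 6 replicates 1, 2 and 3, against 372, 412 and 342 CPM in untreated replicates 1, 2 and 3. At day 4 it had 634, 579 and 650 CPM, and at day 2 it had 468, 479.4 and 421 CPM. Every day 2 library was already above every untreated library, although the day 2 value of 0.28 was not called (edgeR adjusted p = 0.278), and day 4 and day 6 overlapped each other.

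Tmpo had a log2 fold change over untreated cells of 0.73 ± 0.11 at day 4 (SE; edgeR adjusted p = 2.97e-04) and 0.87 ± 0.11 at day 6 (SE; edgeR adjusted p = 2.23e-05). Both calls held in all 21 alternatives. The step from day 4 to day 6 was 0.14 (edgeR adjusted p = 0.314), but it was 0.25 and called without day 6 replicate 2 (edgeR adjusted p = 0.0318) and -0.27 and called with library totals (edgeR adjusted p = 0.0246).

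Emd, which encodes emerin, had 67.4, 68.0 and 65.4 CPM in day 6 replicates 1, 2 and 3, against 71.5, 66.1 and 70.1 CPM in untreated replicates 1, 2 and 3. The groups overlapped. The 12 libraries lay between 61.9 and 74.8 CPM, and the log2 fold change at day 6 was -0.05 with a 95% interval of -0.23 to 0.13. It was called lower under 2 other scalings, at -0.30 with upper-quartile factors (edgeR adjusted p = 0.00750) and -0.56 with library totals (edgeR adjusted p = 1.80e-04), which moved the median of all tested genes by -0.25 and -0.52.

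Banf1 fell in small steps with little spread. It had 117, 115 and 117 CPM in day 6 replicates 1, 2 and 3, against 171, 199 and 177 CPM in untreated replicates 1, 2 and 3. At day 4 it had 139.5, 138.8 and 139.3 CPM, and at day 2 it had 168, 167 and 156 CPM. No 2 neighbouring groups overlapped, and each later group was below the one before it.

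The log2 fold change of Banf1 over untreated cells was -0.16 at day 2 (edgeR adjusted p = 0.383), -0.39 ± 0.08 at day 4 (SE; edgeR adjusted p = 0.00158) and -0.65 ± 0.08 at day 6 (SE; edgeR adjusted p = 1.14e-05). The calls at day 4 and day 6 held in all 21 alternatives. The step from day 4 to day 6 was -0.26 (edgeR adjusted p = 0.0164). The step from day 2 to day 4, -0.23 (edgeR adjusted p = 0.0437), was lost in 11 of 21 alternatives. The annotated span of Banf1 overlaps that of Eif1ad, which had up to 765 counts in a library, and because the strand setting of the counting is not given, reads in the overlap cannot be assigned to a gene with certainty.

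SUN1 and SUN2 sit in the inner nuclear membrane and, with nesprins, form the LINC complex that joins the lamina to the cytoskeleton. Their RNAs took different courses, Sun1 being highest at day 4 and Sun2 at day 6. Sun1 had 132, 128 and 128 CPM in day 4 replicates 1, 2 and 3, against 67.2, 56.9 and 77.2 CPM in untreated replicates 1, 2 and 3. At day 6 it had 105, 86.3 and 93.3 CPM, and at day 2 it had 79.6, 92.4 and 76.2 CPM. All day 4 libraries were above all others, and day 6 lay above untreated but overlapped day 2.

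Sun1 had a log2 fold change over untreated cells of 0.95 ± 0.12 at day 4 (SE; edgeR adjusted p = 5.02e-05) and 0.50 ± 0.12 at day 6 (SE; edgeR adjusted p = 0.00222). Between day 6 and day 4 it was -0.45 (edgeR adjusted p = 0.00734), a fall. The day 4 rise held in all 21 alternatives. The day 6 rise over untreated cells was lost with upper-quartile factors and was -0.02 with library totals.

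Sun2 had 2359, 1126 and 2345 CPM in day 6 replicates 1, 2 and 3, against 642, 544 and 581 CPM in untreated replicates 1, 2 and 3. At day 4 it had 649, 742 and 520 CPM, and at day 2 it had 520, 584 and 677 CPM. All day 6 libraries were above all others, replicate 2 being the lowest of them. The untreated, day 2 and day 4 libraries overlapped.

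The log2 fold change of Sun2 at day 6 was 1.72 ± 0.24 over untreated cells (SE; edgeR adjusted p = 6.53e-05) and 1.61 ± 0.24 over day 4 (SE; edgeR adjusted p = 3.18e-04). Without day 6 replicate 2 the value over untreated cells was 2.00 (edgeR adjusted p = 2.50e-08). Over untreated cells it was 0.11 at day 4 (edgeR adjusted p = 0.736) and 0.01 at day 2 (edgeR adjusted p = 0.989). Per kb, Sun2 RNA was 14.2 to 27.3 times Sun1 RNA at day 6 and 4.40 to 6.31 times at day 4. In untreated cells this ratio was 8.18 to 10.4, and these 3 ranges did not overlap. The day 2 range of 6.86 to 9.65 overlapped untreated.

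Padi4 had the highest fold change of the 10 genes, most of it between day 4 and day 6. It had 666, 387 and 601 CPM in day 6 replicates 1, 2 and 3, against 10.8, 11.0 and 7.90 CPM in untreated replicates 1, 2 and 3. At day 4 it had 10.7, 52.3 and 37.6 CPM, and at day 2 it had 4.10, 6.77 and 19.7 CPM. All day 6 libraries were above all others, while day 4 replicate 1 lay inside the range of the untreated libraries.

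Mean Padi4 CPM at day 6 was 55.7 times that of untreated cells, and the log2 fold change was 5.80 ± 0.63 (SE; edgeR adjusted p = 1.58e-05). Over day 4 it was 4.04 ± 0.56 (SE; edgeR adjusted p = 2.84e-04). The day 4 call over untreated cells, at 1.76 ± 0.60 (SE; edgeR adjusted p = 0.0376), was lost in 10 of 21 alternatives. Over all 21, the edgeR, DESeq2 or limma adjusted p lay between 0.00637 and 0.139. By level per kb, 23.5% of the tested genes were below Padi4 in untreated cells, 24.0% at day 2, 50.7% at day 4 and 97.2% at day 6.

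The other peptidylarginine deiminases differed in timing. Padi2 averaged 51.2 ± 10.1 CPM at day 6 and 144 ± 38.7 CPM at day 4, against 11.0 ± 1.81 CPM in untreated cells (SD, n = 3 each), and it is named after its values were seen. Over untreated cells, the log2 fold change of Padi2 was 1.78 at day 2 (edgeR adjusted p = 0.00275), 3.71 at day 4 (edgeR adjusted p = 3.33e-07) and 2.23 at day 6 (edgeR adjusted p = 3.08e-06). Padi2 was thus called at day 2, where Padi4 was not, and its highest group mean was at day 4. Padi3 reached 4.00 ± 1.30 CPM at day 6, against 0.608 ± 0.558 CPM in untreated cells (SD, n = 3 each), with a log2 fold change of 2.65 (edgeR adjusted p = 5.74e-04). Padi1 and Padi6 had too few counts to be tested. Per kb, Padi4 RNA was 11.2 to 25.8 times Padi2 RNA at day 6 and 0.181 to 0.667 times at day 4. The ratio was 1.13 to 2.19 in untreated cells and 0.213 to 0.959 at day 2, which overlapped day 4.

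Ordered by level per kb, the 10 genes changed places over the course. In untreated cells the order was Banf1 (222 CPM per kb), Sun2 (155), Lbr (120.5), Lmnb1 (107), Emd (53.1), Tmpo (46.2), Lmnb2 (45.3), Sun1 (16.2), Lmna (3.81) and Padi4 (3.75), all as means of 3 libraries. Neighbours whose libraries overlapped were Lbr and Lmnb1, Tmpo and Lmnb2, and Lmna and Padi4. At day 6 the order of mean CPM per kb was Sun2 (510.3), Lbr (209), Padi4 (209), Banf1 (142), Lmnb1 (137), Tmpo (84.5), Emd (51.4), Lmnb2 (35.6), Sun1 (23.0) and Lmna (1.66). There, Lbr overlapped Padi4 and Banf1 overlapped Lmnb1.

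Neutrophil markers had their highest sum at day 6, where Padi4, Sun2, Lbr and Tmpo also had their highest group means. All 10 markers (Ly6g, S100a8, S100a9, Camp, Ltf, Ngp, Lcn2, Retnlg, Cxcr2 and Mmp8) were called higher at day 6, 6 were called higher at day 4 and none at day 2. The 10 markers summed to 65060 to 142100 CPM in day 6 libraries, to 2532 to 5048 CPM in day 4 libraries and to 671 to 1860 CPM in day 2 libraries, against 667 to 1761 CPM in untreated cells. No marker of the list was at 0 in any group. Day 6 replicate 2 was the lowest of its group for this sum and for 8 of the 10 genes, and the highest for Lmna and Emd. Day 4 replicate 1 was the lowest of its group for this sum and for Padi4, Lbr and Lmna. It was the highest for Lmnb1, Lmnb2, Sun1 and Banf1, and in the middle for Sun2, Tmpo and Emd. Day 2 replicate 3 had the highest sum of its group (1860 CPM) and the highest Padi4 and Sun2, but the lowest Lbr and Tmpo. Untreated replicate 2 had the highest sum of its group (1761 CPM) and the highest Padi4 and Tmpo, but the lowest Lbr and Sun2. The part of the neutrophil markers in the results for the 10 genes was not tested.

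**Figure D4:**
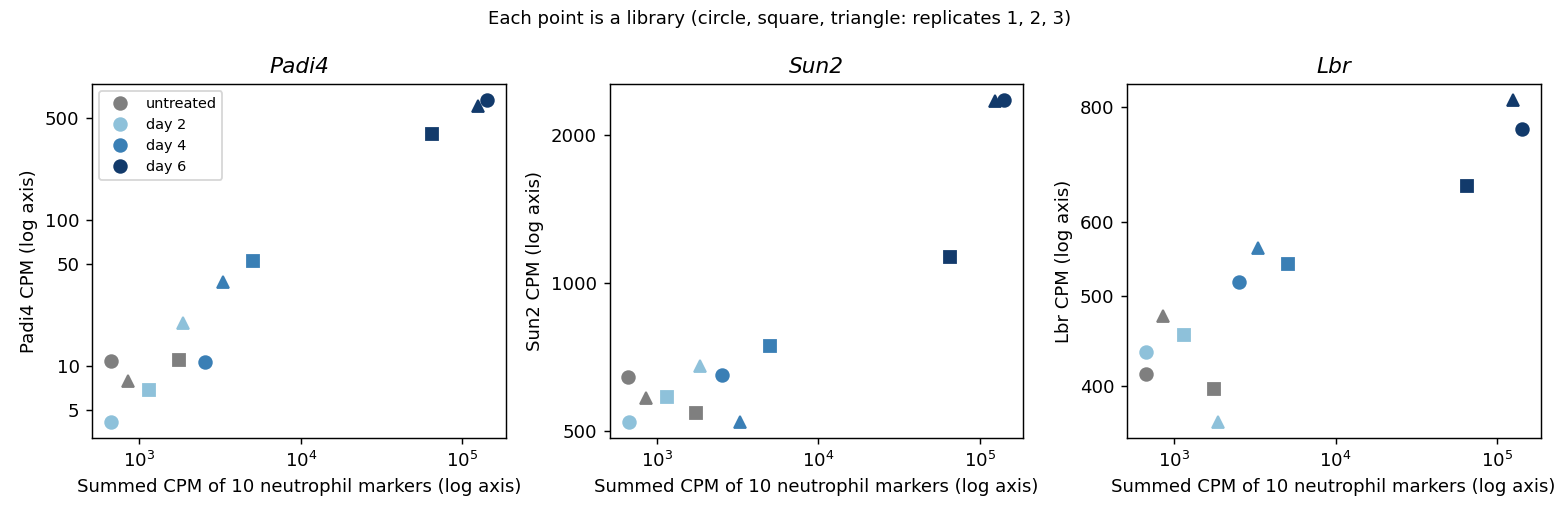
CPM of Padi4, Sun2 and Lbr (y axes, log) against the summed CPM of 10 neutrophil markers (x axis, log); each point is 1 of 12 libraries, coloured by group. The 3 day 6 libraries lie to the upper right in every panel, with replicate 2 (square) at 65060 CPM of markers and the lowest of the day 6 values.

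Monocyte and macrophage markers also rose, with their highest sum in day 6 replicate 2. All 9 markers were called higher than in untreated cells at day 6, 7 at day 4 and 0 at day 2 (edgeR). They summed to 1320 to 4097 CPM in day 6 libraries, to 2572 to 3413 CPM in day 4 libraries and to 417 to 669 CPM in day 2 libraries, against 135 to 242 CPM in untreated cells, with all 9 markers above 0 in each group. The sum of 9 markers of leukemia cells and myeloid progenitors was 9121 to 11330 CPM at day 6, against 28660 to 32530 CPM in untreated cells. Of those 9, 5 were called lower at day 6 by edgeR (Mpo, Elane, Prtn3, Ctsg and Kit) and 3 higher (Ptprc, Csf3r and the targeted Spi1), so the sum does not speak for every marker. Stroma and endothelium markers summed to 20.9 to 27.1 CPM at day 6, against 86.7 to 129 CPM in untreated cells. Megakaryocyte markers summed to at most 7.87 CPM in any library. The part of these cell types in the results was not tested.

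The closest partners of the 10 genes were read from related lists, each counted by calls against untreated cells. Among all tested genes, 22.1% were called higher and 20.2% lower at day 4, and 35.0% and 32.9% at day 6. At day 6, upper-quartile factors called 3173 of all 12057 tested genes higher and 5323 lower, and library totals 2283 and 6764. Both scalings thus give more lower calls across all genes. Without day 6 replicate 2, 4375 were called higher and 4203 lower. Of 14 genes of the LINC complex and other inner nuclear membrane proteins, 7 were called higher and 1 lower at day 4, and 9 higher and 1 lower at day 6, with a median log2 fold change of 0.44 at day 6. Syne1, which encodes a nesprin that binds the SUN proteins, averaged 1548 ± 580 CPM at day 6, against 92.9 ± 8.20 CPM in untreated cells (SD, n = 3 each), a log2 fold change of 4.06 ± 0.36 (SE; edgeR adjusted p = 2.81e-06). Tor1aip1, which encodes LAP1, the torsin activator that binds lamins, averaged 336 ± 51.2 CPM at day 6, against 117 ± 12.4 CPM in untreated cells, a log2 fold change of 1.52 (edgeR adjusted p = 4.30e-07). Tmem201, which encodes SAMP1 of the inner nuclear membrane, fell to 13.4 ± 2.98 CPM at day 6, against 46.6 ± 4.55 CPM in untreated cells (edgeR adjusted p = 2.58e-06). With library totals the day 6 count was 4 higher and 3 lower, and without day 6 replicate 2 it was 13 higher and 1 lower.

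Nucleoporins, which build the nuclear pores, fell or did not pass the test under TMM factors. Of 28 tested, 10 were called lower and none higher at day 4 (edgeR), and 20 were called lower and none higher at day 6, where 32.9% of all tested genes were called lower. Their median log2 fold change at day 6 was -0.35. Nup210, a membrane protein of the pore, averaged 182 ± 32.9 CPM at day 6, against 437 ± 20.4 CPM in untreated cells (SD, n = 3 each; edgeR adjusted p = 4.37e-06). Nup43, of the outer ring, averaged 11.1 ± 2.12 CPM at day 6, against 21.2 ± 3.92 CPM in untreated cells (edgeR adjusted p = 3.72e-04). The day 6 count was 18 without day 6 replicate 2, 24 under upper-quartile scaling and 27 under library totals, with none higher in any of them.

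Most genes of envelope breakdown and sealing were called higher at day 6 with TMM factors, while with library totals the calls ran in both directions. Of 7 kinases and cyclins that act when the envelope disassembles in mitosis, 6 were called higher at day 4 and at day 6 and none lower. Vrk2, a kinase related to the BAF kinase VRK1, averaged 60.8 ± 4.03 CPM at day 6, against 25.3 ± 5.82 CPM in untreated cells (edgeR adjusted p = 6.04e-06). Plk1, a mitotic kinase, averaged 98.8 ± 18.7 CPM at day 6, against 52.6 ± 9.73 CPM in untreated cells (edgeR adjusted p = 4.07e-04). Of 9 genes of ESCRT-III sealing, 3 were called higher at day 4 and 7 at day 6, among them Chmp2a, at 181 ± 9.46 CPM at day 6, against 89.6 ± 4.86 CPM in untreated cells (edgeR adjusted p = 4.27e-07). Chmp4b, a filament subunit, averaged 320.1 ± 35.2 CPM at day 6, against 179 ± 6.22 CPM in untreated cells (edgeR adjusted p = 3.46e-06). With library totals the day 6 counts were 3 higher and 2 lower for the kinases and cyclins and 3 higher and 4 lower for ESCRT-III. With upper-quartile factors they were 5 higher and 0 lower for the kinases and cyclins and 4 higher and 1 lower for ESCRT-III.

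Of 8 proliferation genes, 4 were called higher and 3 lower at day 6. The shares among all tested genes were 35.0% and 32.9%, and counts among 8 genes lie near them. Mki67, a proliferation marker that coats mitotic chromosomes, averaged 1486 ± 389 CPM at day 6, against 673 ± 23.3 CPM in untreated cells (edgeR adjusted p = 1.11e-04), and Rrm2, a subunit of ribonucleotide reductase, averaged 160 ± 33.0 CPM, against 83.9 ± 11.5 CPM (edgeR adjusted p = 9.14e-05). Mcm2, a replicative helicase subunit, averaged 149 ± 6.68 CPM at day 6, against 221 ± 23.0 CPM in untreated cells (edgeR adjusted p = 1.95e-04). Tk1, thymidine kinase, averaged 50.4 ± 11.1 CPM at day 6, against 65.5 ± 2.43 CPM in untreated cells (edgeR adjusted p = 0.0373). The summed level of the 8 genes was 2620 to 3863 CPM at day 6, lowest in replicate 2, against 2143 to 2396 CPM in untreated cells. The count was 3 higher and 4 lower with upper-quartile factors and 2 higher and 4 lower with library totals.

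Of 6 genes that process or bind prelamin A, 3 were called higher and 3 lower at day 6. The shares among all tested genes were 35.0% and 32.9%. Zmpste24, the prelamin A protease, averaged 284 ± 41.8 CPM at day 6, against 196 ± 13.9 CPM in untreated cells (edgeR adjusted p = 5.35e-04), and Narf, a prelamin A binding protein, averaged 147 ± 39.6 CPM, against 78.5 ± 5.15 CPM (edgeR adjusted p = 2.39e-04). Fntb, a farnesyltransferase subunit, averaged 16.3 ± 1.32 CPM at day 6, against 25.3 ± 2.66 CPM in untreated cells (edgeR adjusted p = 5.40e-04). Rce1, which trims farnesylated proteins, averaged 23.7 ± 2.08 CPM at day 6, against 30.2 ± 1.23 CPM in untreated cells (edgeR adjusted p = 0.00906). With library totals the count was 1 higher and 3 lower.

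Among 10 heterochromatin partners of the lamina, 1 was called higher and 3 lower at day 6. Of all tested genes 35.0% were called higher and 32.9% lower, so the lower count lies near its share. Prr14, which tethers HP1 to the lamina, averaged 78.9 ± 6.79 CPM at day 6, against 55.3 ± 1.67 CPM in untreated cells (edgeR adjusted p = 2.02e-04). The histone H3 lysine methyltransferase Suv39h1 averaged 71.5 ± 6.51 CPM at day 6, against 105 ± 4.02 CPM in untreated cells (edgeR adjusted p = 1.05e-04). Setdb1, of the same enzyme class, averaged 109 ± 4.41 CPM at day 6, against 155 ± 6.86 CPM in untreated cells (edgeR adjusted p = 5.47e-05). With upper-quartile factors 1 was higher and 8 lower, and with library totals none was higher and 8 were lower.

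Of 9 sterol enzymes that share the pathway of LBR's reductase activity, 3 were called higher and 2 lower at day 6. The shares among all tested genes were 35.0% and 32.9%, so these counts do not set the list apart. Tm7sf2, which carries the same sterol reductase activity as LBR, averaged 6.22 ± 1.71 CPM at day 6, against 3.30 ± 0.101 CPM in untreated cells (edgeR adjusted p = 0.0183). Msmo1, a methylsterol oxidase, averaged 54.6 ± 18.6 CPM at day 6, against 27.9 ± 3.82 CPM in untreated cells (edgeR adjusted p = 0.00137). Dhcr7, the last reductase before cholesterol in that branch, fell to 23.8 ± 0.996 CPM at day 6, against 71.1 ± 9.75 CPM in untreated cells (edgeR adjusted p = 8.67e-08), and Nsdhl, a sterol dehydrogenase, averaged 16.8 ± 2.64 CPM, against 25.4 ± 1.81 CPM (edgeR adjusted p = 0.00104). With library totals the count was 1 higher and 5 lower.

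**Figure D5:**
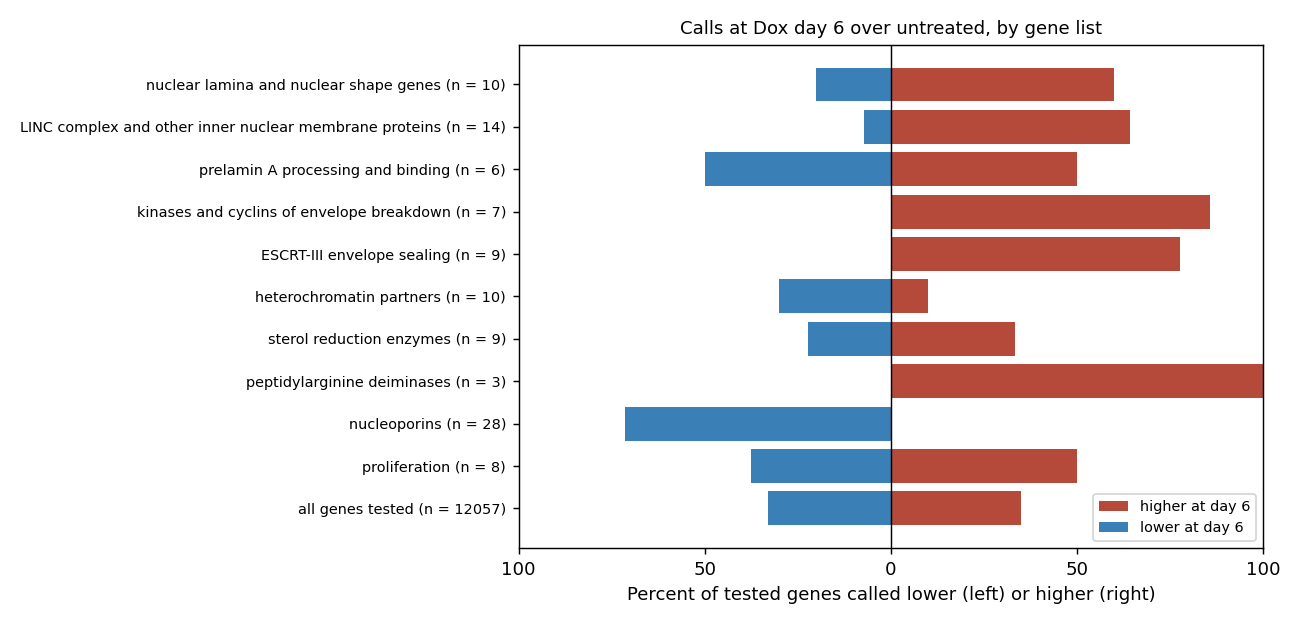
Percent of the tested genes of each list called lower (left) or higher (right) at day 6 over untreated cells, by edgeR adjusted p under 0.05, with all 12057 tested genes in the last row. Nucleoporins were called in the lower direction alone under TMM factors. Upper-quartile factors and library totals shift all genes down at day 6 and cannot test that direction. The envelope breakdown and ESCRT-III lists, called higher alone under TMM factors, had calls in both directions with library totals. ESCRT-III had them with upper-quartile factors too.

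The scaling between libraries mattered most at day 6. The TMM factors were 0.737, 0.847 and 0.749 in day 6 replicates 1, 2 and 3 and 1.02 to 1.15 in the other libraries. Library totals alone moved the median log2 fold change of all tested genes by -0.12 at day 4 and -0.52 at day 6, and upper-quartile factors moved it by -0.09 and -0.25. Genes called higher made up 51.6% of the day 6 calls with TMM factors. That share was 37.3% when upper-quartile factors were used and 25.2% with library totals. Of the 10 genes, 4 were called higher and 4 lower at day 6 with library totals, where 2283 of all 12057 tested genes were higher and 6764 lower. The directions of Padi4, Sun2, Lbr, Tmpo, Banf1 and Lmnb2 over untreated cells at day 6 were the same in all 21 alternatives.

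Genes most like each of the 8 changing genes were found by Pearson's r of log2 CPM over the 12 libraries, which share 4 groups, so that a high r mostly says that the group means ran in parallel. Predicted gene models, genes with Rik names and genes without a symbol were left out of this ranking. The closest to Padi4 were Septin5 (r = 0.992), Ypel5 (0.989) and Itgb2l (0.989), and to Sun2 Stim1 (0.990), Tmc8 (0.989) and Cpne2 (0.987). The closest to Lbr were Mgst1 (0.984), Uimc1 (0.983) and Cd44 (0.982). Tmpo ran with Kif23 (0.988), N4bp2l1 (0.986) and Pgap6 (0.980), and Lmnb1 with Ckap2 (0.948), Dek (0.943) and Aurkb (0.926). Sun1 ran with Rab40c (0.974), Elmo2 (0.965) and Dnase1l1 (0.954). Banf1 ran with Ssr1 (0.981), Orc5 (0.981) and Rbbp7 (0.979), and Lmnb2 with Tbc1d19 (0.946), Ccdc14 (0.943) and the nucleoporin gene Seh1l (0.939).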

How the data were processed

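The deposited files hold raw counts per gene for 12 libraries, unnormalized and whole-numbered, with an Entrez identifier and a gene length beside each; the submitters' processing notes list mm10, featureCounts, limma 3.22.0, edgeR 3.8.2 and CASAVA 1.8.2, without their roles. How reads were aligned, and whether counting used strand, is not given in the sources used here. Identifiers were paired with RefSeq symbols for 25275 of 27179 genes; the 1904 without one held 0.493 to 1.07% of counts per library.

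Genes passing filterByExpr (12057) were tested in 1 fit of all 12 libraries with group as the only term: edgeR 4.0.16 glmQLFit (robust) and glmQLFTest, TMM factors, two-sided, Benjamini-Hochberg adjusted p under 0.05, in R 4.3.3. The script was tested on simulated data. SE was taken from the quasi-likelihood F, and 95% intervals from its t distribution. The biological coefficient of variation was 14.3%, and 3 counts correspond to 0.393 to 0.640 CPM. Levels between genes use CPM per kb of the deposited gene length.

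The 10 genes, related lists and cell markers were chosen with earlier results of these data known. Genes named are the 10, up to 2 called genes with the largest rise and 2 with the largest fall at day 6 of each related list, the 3 genes most alike by Pearson's r of log2 CPM (prior count 2) to each changing gene, and Spi1. Each result was recomputed under 21 alternatives: DESeq2 1.42.0, limma 3.58.1 voom, 3 other scalings, 2 other filters, only the 2 groups compared, a replicate block, and each of the 12 libraries left out. Groups of 3 libraries were not screened for outliers.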

Additional observations from a re-analysis of the deposited data

How the results depend on the processing

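The 50 fold changes of the 10 genes (5 comparisons) kept their direction and their side of the threshold in 949 cases over the 21 alternatives, lost a call in 58, gained one in 18 and changed sign in 25. Of the sign changes, 3 touched a called value, all with library totals, which shift the fold changes within a comparison by similar amounts. These 3 were Lmnb1 (-0.17) and Sun1 (-0.024) at day 6 over untreated cells, and Tmpo (-0.27) at day 6 over day 4. The other 22 were called in neither fit. With library totals they were Sun2 at day 4 over untreated cells (-0.0062) and over day 2 (-0.037) and Emd at day 4 over day 2 (-0.039), with upper-quartile factors Tmpo at day 6 over day 4 (-0.017), with limma voom Lmna (0.011) and Padi4 (-0.18) at day 2, with the replicate block Padi4 at day 2 (-0.017) and with no filter Emd at day 4 over untreated cells (0.0061). The omission of 1 library gave the other 14, with these ranges over the omissions. At day 2 over untreated cells the range was -0.88 to 0.46 for Padi4, -0.83 to 0.69 for Lmna, -0.096 to 0.054 for Lbr, -0.021 to 0.11 for Lmnb2 and -0.094 to 0.099 for Sun2. At day 4 over untreated cells it was -0.068 to 0.058 for Emd and -0.0021 to 0.24 for Sun2, at day 4 over day 2 it was -0.016 to 0.23 for Sun2, and at day 6 over day 4 it was -0.11 to 0.027 for Emd. Called among the 10 at day 4 over day 2 were 5 genes, but 3 with upper-quartile factors (2 higher, 1 lower) and 3 with the replicate block (3 higher). Among all tested genes that step had 1479 higher and 1897 lower with upper-quartile factors, and 1723 and 1074 with the replicate block. Called among all genes at day 2 over untreated cells were 175, but 414 with DESeq2 and 407 when only the 2 groups compared were fitted; the cause was not tested. Leaving out 1 library gave 38 to 604 genes at day 2 over untreated cells (lowest without day 2 replicate 2, highest without day 6 replicate 2), 1885 to 4211 at day 4 over day 2 (3042 with all; lowest without day 4 replicate 2), and 1 to 5 of the 10 genes at day 4 over day 2 (lowest without day 4 replicate 3).

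With the replicate number as a replicate block, calls over untreated cells covered 5 of the 10 genes at day 4 and 8 of them by day 6, and 6 at day 6 over day 4. No sign was seen that the numbers pair the libraries. The deviations of 18 same-number pairs correlated with a mean r of 0.006 (-0.17 to 0.29), and 4 of the 12 had their own number as the nearest. With 3 libraries per group these values cannot decide whether a number marks a shared mouse or batch. Of all calls, the share that was higher was 41.2% at day 4 over untreated cells under upper-quartile scaling and 39.1% under library totals, against 52.2% with TMM factors. At day 4 over day 2 it was 43.8% and 35.1%, against 59.6%, and at day 6 over day 4 it was 34.6% and 17.5%, against 51.1%. The counts of the related lists under other scalings and without day 6 replicate 2 were added after the data were seen. Lmna, at 16 to 182 counts a library, had the widest intervals among the lamins.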
